A study of Mus musculus with 2 samples.

Results

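Late reticulocytes with few mitochondrial transcripts were studied in blood of db/db mice and wild-type (wt) mice. They were barcodes with at least 200 genes, 50% to under 95% of UMIs from Hba- and Hbb- genes and under 1% from mt- genes. A barcode could hold at most 1 UMI of 6 lymphocyte genes (Cd79a, Cd79b, Cd74, Cd3d, Cd3e, Cd3g) and at most 2 UMIs of S100a8 and S100a9. A UMI (unique molecular identifier) stands for 1 captured transcript. The rule took 883 of 19912 barcodes of the db/db library and 457 of 16700 of the wt library, 1340 of 36612 in all. Each genotype gave 1 droplet 3′ RNA library of peripheral blood, pooled per the labels from 3 male C57BLKs/J mice aged 21 weeks, and red cells had been lysed before loading. No treatment was given in the labels for either group. The db allele disrupts the gene of the leptin receptor, Lepr, and homozygotes become obese and diabetic. With 1 library per genotype there was no test, and intervals, all at 95%, reflect counting error alone. The values of the rule (genes, haemoglobin, mt-, lymphocyte and S100 UMIs) are given as a description, since members were chosen by them.

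Reticulocytes are enucleated, immature red cells that enter blood from the marrow. As they mature they translate the globin transcripts left by the erythroblast, make haem, and then remove mitochondria by mitophagy, ribosomes by degradation and surplus membrane proteins such as the transferrin receptor by vesicle release. Haem is built partly in mitochondria, and ubiquitin enzymes of the terminal erythroid programme remodel the proteome on the way to the mature cell.

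Lepr had no UMI in the members of either library, which allows up to 5.65 CPM (defined below) in db/db and up to 10.0 in wt. Reads at the 3′ end of the transcript cannot show the allele, so the count checks nothing about genotype. No deposited barcode had fewer than 500 UMIs. The 2 libraries shared 91 barcode sequences, and 4 db/db and 3 wt members bore a barcode that also occurred in the other library. No doublet caller was run, and the rule set no limit on platelet or monocyte genes.

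Of the barcodes with at least 200 genes, 6483 in db/db and 7576 in wt, the haemoglobin window kept 1697 and 1641. The limit on mt- UMIs then kept 1062 in db/db and 566 in wt. Members made up 4.43% of all db/db barcodes (Clopper-Pearson interval 4.15 to 4.73) and 2.74% of wt barcodes (2.49 to 3.00), a ratio of 1.62 (1.45 to 1.82). Among barcodes that differed in the mt- limit alone, members were 86.7% in db/db (84.4 to 88.7) and 53.1% in wt (49.7 to 56.5). Platelet transcripts moved with the first of these shares. Members without any UMI of 10 platelet markers were 1.24% of db/db barcodes (1.09 to 1.40) and 1.87% of wt barcodes (1.67 to 2.09), and members with one were 3.19% (2.95 to 3.45) and 0.862% (0.728 to 1.01). The ratio of shares was 0.66 without platelet UMIs and 1.06 with at least 100 genes in place of 200, while the share of low-mt- barcodes stayed higher in db/db without platelet UMIs, at 80.2% (75.3 to 84.5) against 50.9% in wt (46.9 to 54.9).

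**Figure D1:**
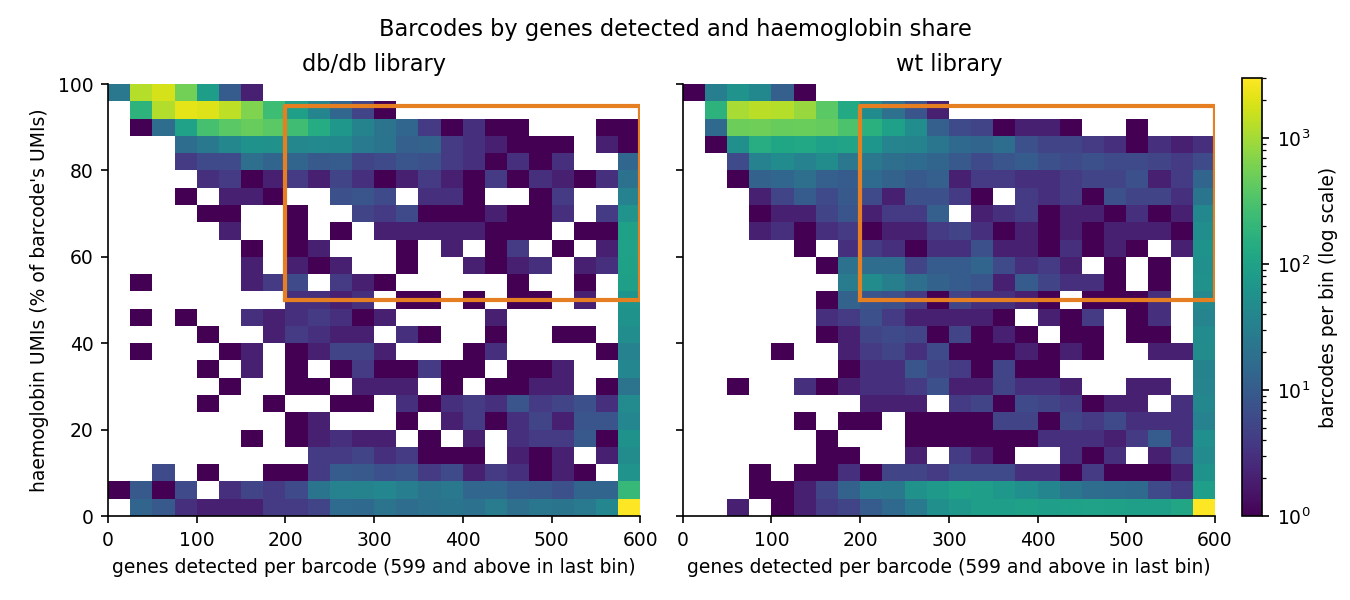
Number of barcodes (colour, log scale) by genes detected (horizontal) and haemoglobin share of UMIs in percent (vertical) in the db/db library (left) and the wt library (right). The orange frame marks the gene minimum and the haemoglobin window of the rule; the limits on mt-, lymphocyte and S100 UMIs act further inside it.

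Members were deep in haemoglobin RNA and shallow in all else. The median member held 5468 UMIs and 232 genes in db/db and 6221 UMIs and 225 genes in wt. Haemoglobin took a median of 89.8% of UMIs in both libraries. Outside haemoglobin and mt- genes the median was 565 UMIs in db/db and 610 in wt, and all members together gave 531298 and 298631 such UMIs. Thinned to 250 of these UMIs, with no member left out, a median of 135 genes were seen in db/db and 121 in wt. A median of 15 UMIs per member came from mt- genes in db/db and 18 in wt, or 0.279% and 0.299% of UMIs, and no member was at 0.  With 200 to 209 genes, 185 db/db members had a median haemoglobin share of 90.8%, and with 190 to 199 genes 218 db/db barcodes had 91.1%. In wt these shares were 90.8% in 109 members and 90.4% in 142 barcodes. Just inside the mt- limit, Malat1 stood at 11421 CPM in 29 db/db members and 23310 in 27 wt members. Just outside it, 17 db/db barcodes had 24790 and 22 wt barcodes had 26668.

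The members held the markers named for these cells at levels far above those of B cell barcodes. Levels are in CPM, UMIs per 1000000 UMIs outside haemoglobin and mt- genes, summed over the members of a library. They are not scaled by transcript length, since reads come from the 3′ end. Bpgm makes and removes 2,3-bisphosphoglycerate, which lowers the oxygen affinity of haemoglobin. It lies on chromosome 6 at 34476207-34505613 (GRCm38) and reached 22594 CPM in db/db and 19023 in wt. Mkrn1, a RING ubiquitin ligase on chromosome 6 at 39397804-39420462, reached 19134 in db/db and 16817 in wt. Car2, the red cell carbonic anhydrase on chromosome 3 at 14886273-14900770, reached 5558 in db/db and 4866 in wt. In members, all 3 differed between the libraries by less than 1.5-fold. Barcodes that met every other limit but fell short of the gene minimum held more Bpgm and Mkrn1 than members and less Car2. Bpgm was there at 32983 in db/db and 19976 in wt, Mkrn1 at 25788 and 17676, and Car2 at 4347 and 1759. Among those barcodes Bpgm and Car2 were higher in db/db by at least 1.5-fold, and Mkrn1 was within it. In B cell barcodes of the same libraries (Cd79a and Cd79b together at 3 UMIs or more, haemoglobin under 50%), Bpgm was at 127 CPM in db/db and 100 in wt, Mkrn1 at 211 and 181, and Car2 at 27.8 and 17.0. Bpgm had a UMI in 98.5% of db/db and 97.6% of wt members, Mkrn1 in 99.1% and 99.3%, and Car2 in 65.1% and 66.7%. B cell barcodes, with a median of 2230 UMIs in db/db and 2234 in wt, had a Car2 UMI in 4.94% of cases in db/db and 3.11% in wt. After thinning, these Car2 shares were 50.7% in db/db and 47.7% in wt members, against 0.870% and 0.602% in B cell barcodes. Car2 UMIs were spread less evenly than Bpgm UMIs, but the counts were not matched for level. The median member held 2 Car2 UMIs in db/db and 1 in wt, against 12 Bpgm UMIs in each library. The tenth of members with the most Car2 UMIs held 42.5% of them in db/db and 44.0% in wt, against 22.2% and 21.9% for Bpgm.

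The haemoglobin RNA itself came almost wholly from 4 adult genes in both libraries. Hbb-bs, an adult β-globin gene, gave 45.1% of haemoglobin UMIs in db/db and 44.6% in wt. Hba-a1, an adult α-globin gene on chromosome 11 at 32283511-32284465 and the first of the named markers, gave 24.1% in db/db and 23.9% in wt. Its neighbour copy Hba-a2 gave 17.7% in db/db and 18.4% in wt. Hbb-bt, the second adult β-globin gene, gave 13.1% in both libraries. The copies in each pair are near-identical, so the split within a pair is uncertain. The α-globin genes together gave 41.8% in db/db and 42.3% in wt. Embryonic globin was at the edge of detection: Hbb-y had 7 UMIs in db/db and 1 in wt, and Hba-x and Hbb-bh1 had none. Hbb-bt took a larger part of haemoglobin RNA in members than in other barcodes. It gave 11.8% of haemoglobin UMIs in db/db and 11.4% in wt where mt- was at least 1%, and 10.5% and 9.99% in barcodes with at least 95% haemoglobin. In B cell barcodes, which make no haemoglobin, it gave 9.28% in db/db and 9.40% in wt.

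The bases before the start of 3 globin genes and of Alas2 are shown because globin makes up most of what members hold and Alas2 leads the haem genes. They come from RefSeq on GRCm38.p6, 250 bases up to RefSeq's transcription start, on the gene's own strand. For Hba-a1, Hbb-bs, Hbb-bt and Alas2 that start lies inside the gene interval of the GENCODE annotation, from which gene positions are given. Capitals mark 4 motifs on either strand. One is the CCAAT box. Another is CACCC, bound by Krüppel-like factors. The third is AGATAA, 1 form of the GATA factor site, and other forms were not marked. The last, the core of an interferon response element, is the word GAAA repeated after a gap of 2 bases. Hba-a1 is read from the plus strand of chr11:32283422-32283671. Hbb-bs is read from the minus strand of chr7:103827929-103828178. Hbb-bt is read from the minus strand of chr7:103813924-103814173. Alas2 is read from the plus strand of chrX:150547167-150547416.
Hba-a1: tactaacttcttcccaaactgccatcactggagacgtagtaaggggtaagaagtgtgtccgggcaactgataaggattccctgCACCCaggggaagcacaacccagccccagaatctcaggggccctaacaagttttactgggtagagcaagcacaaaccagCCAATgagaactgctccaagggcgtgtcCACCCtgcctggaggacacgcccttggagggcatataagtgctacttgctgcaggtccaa
Hbb-bs: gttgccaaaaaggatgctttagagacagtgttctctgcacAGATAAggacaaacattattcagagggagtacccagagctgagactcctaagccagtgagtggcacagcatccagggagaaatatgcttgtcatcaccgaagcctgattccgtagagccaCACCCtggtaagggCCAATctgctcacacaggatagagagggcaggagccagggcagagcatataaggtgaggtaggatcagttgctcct
Hbb-bt: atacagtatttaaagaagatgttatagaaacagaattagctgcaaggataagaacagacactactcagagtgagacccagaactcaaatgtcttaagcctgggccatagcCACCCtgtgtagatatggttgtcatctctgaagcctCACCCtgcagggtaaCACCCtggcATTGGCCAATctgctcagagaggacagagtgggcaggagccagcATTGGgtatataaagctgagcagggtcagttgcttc
Alas2: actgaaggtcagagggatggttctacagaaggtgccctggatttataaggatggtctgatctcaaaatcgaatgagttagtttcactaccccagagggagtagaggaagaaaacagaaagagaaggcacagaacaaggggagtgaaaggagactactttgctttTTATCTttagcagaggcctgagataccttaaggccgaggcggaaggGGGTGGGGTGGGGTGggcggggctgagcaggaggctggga
CCAAT stood once in Hba-a1 and Hbb-bs, 88 and 76 bases before the start, and 3 times in Hbb-bt. CACCC stood 2 times in Hba-a1, 1 time in Hbb-bs, 3 times in Hbb-bt and 3 times in Alas2. AGATAA stood 1 time in Hbb-bs and 1 time in Alas2 and not in the other 2 windows. Of all 32851 RefSeq windows of this length, 33.8% held CCAAT, 52.0% CACCC, 9.99% AGATAA and 2.98% the interferon element core.

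The design sets blood of db/db mice against that of wt mice. Of 703 genes with at least 100 UMIs over the members of both libraries, 253 (36.0%) were higher in db/db by at least 1.5-fold and 53 (7.54%) were lower. These are log2 ratios of the level plus 10 CPM, db/db over wt, and their median was 0.24. Of the higher genes, 210 of 253 (83.0%) stood higher in platelet barcodes than in members in both libraries, against 264 of all 703 (37.6%). Genes that stood at least 5-fold above B cell, T cell, neutrophil and platelet barcodes in both libraries formed a set chosen after the values were seen. Of these 103 genes, 5 (4.85%) were higher in db/db by at least 1.5-fold, 6 (5.83%) were lower, and the median was 0.03. Higher genes were 82.7% of the genes past 1.5-fold, and 67.6% with scaling by the median ratio of all genes, which moves the median of all genes to 0.00. No direction is given for genes or lists within 1.5-fold. Arf5, Cd47, Tspan33, St3gal5, Atp5b, Rps4x and Ifitm2, named below as higher, were within 1.5-fold under that scaling.

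Of 17 haem synthesis genes 7 were measured, with a median log2 ratio of 0.07, and none passed 1.5-fold. Alas2, the first enzyme of erythroid haem synthesis, reached 18873 CPM in db/db and 19107 in wt (ratio 0.988, interval 0.956 to 1.02). Fech, which puts iron into the ring as the last step, reached 4593 in db/db and 4420 in wt. Slc25a39, a mitochondrial carrier, stood at 4047 in db/db and 3851 in wt, and Glrx5, of iron-sulphur cluster assembly, at 3352 and 3298. The other 10 genes, Alad and Cpox among them, had too few UMIs for the threshold.

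Of 21 genes of iron and haem handling 6 were measured, with a median of 0.28. Ftl1 and Fth1, the ferritin chains that store iron, stood at 15430 and 10128 CPM in db/db and at 11338 and 7390 in wt. Slc25a37, the mitochondrial iron importer mitoferrin, reached 8084 in db/db and 7410 in wt. Blvrb, a biliverdin reductase, reached 4449 in db/db and 4504 in wt. Snx3, a sorting protein that recycles the transferrin receptor, was the 1 gene past 1.5-fold, at 422 in db/db and 224 in wt (1.88-fold, 1.42 to 2.51). In platelet barcodes Snx3 was at 506 in db/db and 546 in wt. Tfrc, the transferrin receptor, was low in both libraries, with a UMI in 4.42% of db/db and 7.22% of wt members, against 4.45% and 5.88% of B cell barcodes.

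The membrane and its skeleton give the red cell its shape. Of 26 such genes 15 were measured, with a median of -0.04, 1 higher and 1 lower; with median-ratio scaling none was higher and 3 were lower. Epb41, protein 4.1, stood at 5972 CPM in db/db and 7213 in wt. Slc4a1, the anion exchanger band 3, stood at 3004 in db/db and 3730 in wt. Mpp1, a palmitoylated membrane protein, stood at 2404 in db/db and 2317 in wt. Tspo2, an erythroid paralogue of the mitochondrial translocator protein Tspo, was lower in db/db, at 576 against 901 in wt (ratio 0.639, 0.541 to 0.756). It was within 1.5-fold with scaling to all UMIs, and in members without platelet UMIs, at 658 in db/db and 951 in wt. Cd47, the signal that keeps macrophages from engulfing a cell, was higher, at 615 in db/db against 392 in wt. Platelet barcodes held more Cd47, 1000 in db/db and 1014 in wt.

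Of 22 genes of autophagy and organelle clearance 8 were measured, with a median of 0.17 and none past 1.5-fold. Bnip3l, the receptor that marks reticulocyte mitochondria for mitophagy, reached 9405 CPM in db/db and 8599 in wt. Map1lc3b, which coats the autophagosome, reached 4668 in db/db and 4042 in wt, and its relative Gabarapl2 reached 4382 and 3573. Of 25 ubiquitin genes 16 were measured, with a median of 0.01 and 1 lower. Ubb, a polyubiquitin gene, stood at 23646 in db/db and 18548 in wt. Ube2l6, a conjugating enzyme that also serves Isg15, stood at 6072 in db/db and 7039 in wt. Trim10, a ligase of late erythroid cells, stood at 2445 in db/db and 1889 in wt. Ube2d3 was the lower gene, at 175 in db/db and 345 in wt.

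**Figure D2:**
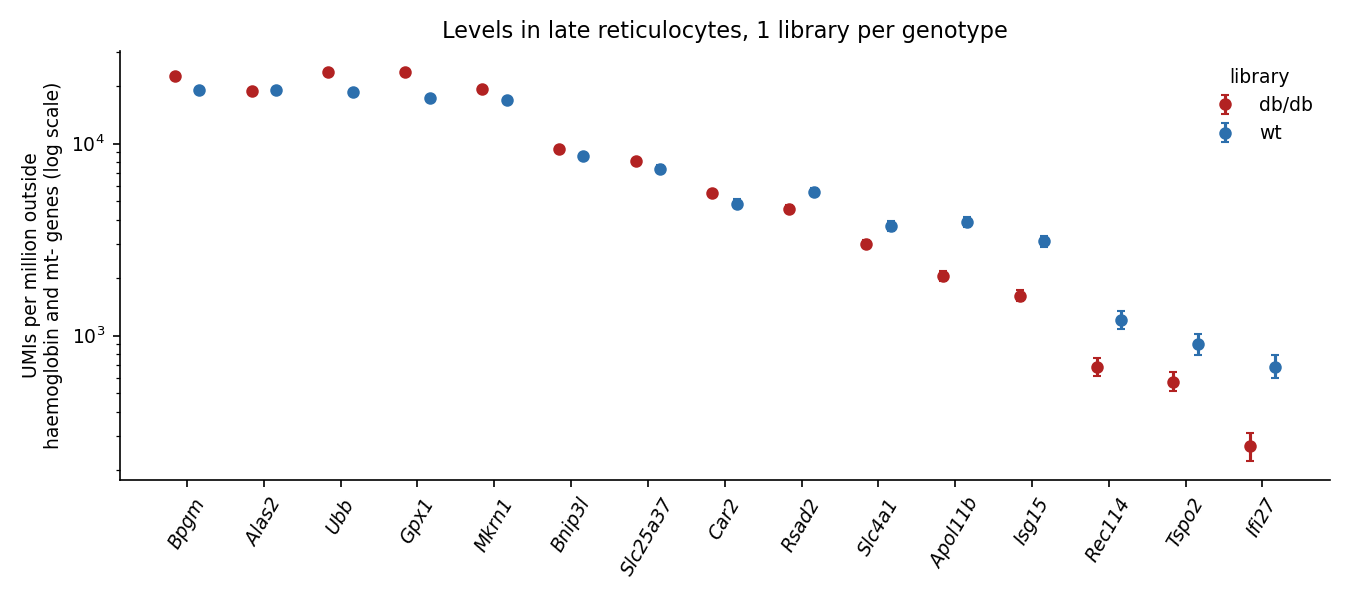
Levels of 15 genes in late reticulocytes, in CPM outside haemoglobin and mt- genes (log scale), in the db/db library (red, left of each pair) and the wt library (blue). Bars are exact Poisson 95% intervals of the summed counts, and there is 1 library per genotype. Bpgm, Alas2 and Mkrn1 lie close in both, while Apol11b, Isg15, Rec114, Tspo2 and Ifi27 lie lower in db/db.

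Of 17 antioxidant genes 6 were measured, with a median of 0.51 and 2 higher, a share near the 36.0% of all genes. Gpx1, a glutathione peroxidase abundant in red cells, reached 23640 CPM in db/db and 17259 in wt, and Prdx2, the main peroxiredoxin of red cells, reached 6693 and 4621. Both were within 1.5-fold over all members. In members without platelet UMIs both were past it. Gpx1 was then at 31693 in db/db and 19369 in wt, and Prdx2 at 8965 and 5109. Of 5 antioxidant genes measured there 3 were higher, beside 20.5% of 317 genes. Gpx4, which reduces lipid peroxides, was at 1869 in db/db and 445 in wt (4.20-fold, 3.50 to 5.07), and Prdx6 at 429 and 114. In platelet barcodes Gpx4 was at 6366 in db/db and 3915 in wt. In members without platelet UMIs, Gpx4 was at 670 in db/db and 184 in wt. Of 77 nuclear-encoded respiratory chain genes 30 were measured, with a median of 0.57, 15 higher and 1 lower, beside 36.0% and 7.54% of all genes. With median-ratio scaling 5 were higher and 1 lower, and with scaling to all UMIs 7 were higher and none lower. Cox4i1, a subunit of cytochrome c oxidase, was at 727 in db/db and 305 in wt, and Atp5b, of ATP synthase, at 1131 and 707. Ndufa7 was lower, at 115 in db/db and 177 in wt. In members without platelet UMIs, 14 of these genes were measured and 9 were higher in db/db, beside 20.5% of 317 genes. Cox4i1 was then at 933 in db/db and 325 in wt. Of 85 ribosomal protein genes 77 were measured, with a median of -0.15, 2 higher and 7 lower, beside 36.0% and 7.54% of all genes. With median-ratio scaling none was higher and 17 were lower, and with scaling to all UMIs 1 and 4. Among members without platelet UMIs, 72 ribosomal protein genes were measured, with a median of 0.26, 9 higher and 3 lower. The shares of all 317 genes there were 20.5% and 7.26%, with a median of 0.30. Rps27 was the lowest of the 77, at 425 in db/db and 921 in wt, and Rps4x the highest, at 937 and 549.

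Of the 103 genes that stood above all other gates, the highest ratios were those of Ctsf, Mgst3, Arf5, Tspan33 and St3gal5. Ctsf, a lysosomal cysteine protease, was at 171 CPM in db/db and 53.6 in wt (3.20-fold, 1.87 to 5.83). Mgst3, a microsomal glutathione transferase, was at 625 in db/db and 328 in wt, and in members without platelet UMIs at 946 and 359. Arf5, a small GTPase of vesicle traffic, was at 5532 in db/db and 3352 in wt (1.65-fold, 1.54 to 1.77). The lowest were Isg15, Apol11b, Rec114, Vopp1, Tspo2 and Psme3. Psme3, the PA28γ activator of the proteasome, was at 811 in db/db and 1249 in wt. In members without platelet UMIs Psme3 was within 1.5-fold, at 1128 in db/db and 1354 in wt (0.833, 0.687 to 1.01), and with scaling to all UMIs Vopp1, Tspo2 and Psme3 were all within it.

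Of the 22 interferon-induced genes listed, Isg15, Xaf1 and Rsad2 were measured, and Isg15 and Xaf1 were lower in db/db by at least 1.5-fold, beside 7.54% of all genes. Isg15, a ubiquitin-like protein that interferon induces, reached 1615 CPM in db/db and 3108 in wt (ratio 0.520, 0.473 to 0.571). It had a UMI in 27.5% of db/db and 45.7% of wt members, against 2.05% and 2.84% of B cell barcodes. After thinning these shares were 17.1% in db/db and 31.1% in wt members, against 0.383% and 0.568% of B cell barcodes. Single members held up to 52 Isg15 UMIs in db/db and 47 in wt, and the tenth of members with most held 77.4% of them in db/db and 64.2% in wt. Rsad2, the antiviral protein viperin, was present in most members and differed less, at 4576 in db/db and 5606 in wt (0.816, 0.767 to 0.869). Xaf1, an interferon-induced partner of XIAP, was at 33.9 in db/db and 281 in wt, with a UMI in 17 of 883 and 59 of 457 members. It had 18 UMIs in db/db and 84 in wt. The filter takes the UMIs of both libraries together, so the place of Xaf1 among the measured genes depended mainly on wt. Ifi27, an interferon-inducible gene, was at 265 in db/db and 690 in wt (0.385, 0.308 to 0.479), with a UMI in 11.8% and 30.9% of members. Ifi27 is not on the list and was named by its ratio. Irf7, a transcription factor of the response chosen after its values were seen, had too few UMIs for the threshold, at 50.8 in db/db and 104 in wt. Other interferon-inducible genes off the list, also chosen after their values were seen, did not go the same way. Ifitm2 was higher in db/db, with a log2 ratio of 0.60, and Ifitm3 (0.44) and Isg20 (0.21) were within 1.5-fold.

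The bases before Isg15 and Rsad2 are shown because they are the most abundant measured genes of the list, with the same capitals as above. Isg15 is read from the minus strand of chr4:156200819-156201068 and Rsad2 from the minus strand of chr12:26456453-26456702.
Isg15: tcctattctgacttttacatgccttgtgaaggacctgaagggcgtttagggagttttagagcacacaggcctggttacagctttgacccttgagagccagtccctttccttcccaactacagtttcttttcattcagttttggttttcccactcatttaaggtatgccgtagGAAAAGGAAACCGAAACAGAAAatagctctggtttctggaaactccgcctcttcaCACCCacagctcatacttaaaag
Rsad2: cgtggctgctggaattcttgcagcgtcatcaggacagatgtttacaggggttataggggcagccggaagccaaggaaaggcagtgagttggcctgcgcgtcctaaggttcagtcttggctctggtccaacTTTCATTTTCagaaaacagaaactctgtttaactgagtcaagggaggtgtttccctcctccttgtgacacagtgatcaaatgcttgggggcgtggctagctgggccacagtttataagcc
The interferon element core stood 3 times in Isg15, in overlapping copies 78, 72 and 66 bases before the start, and 1 time in Rsad2, on the opposite strand. It stood 1 time in Apol11b and not in Xaf1 or Rec114. Of 97 windows matched to 75 of the 103 genes above all gates, 4.12% held it.

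Apol11b, an apolipoprotein L gene on chromosome 15 at 77633946-77643286, was at 2037 CPM in db/db and 3901 in wt (0.522, 0.480 to 0.568). It had a UMI in 37.6% of db/db and 64.3% of wt members. Rec114, known from meiotic recombination, was at 687 in db/db and 1206 in wt (0.570, 0.491 to 0.661), with a UMI in 29.8% and 47.3% of members. In members without platelet UMIs, Isg15 was at 1917 in db/db and 3610 in wt, Apol11b at 2650 and 4163, Rec114 at 839 and 1378, and Ifi27 at 326 and 839. Among the alternative settings in which a gene passed the filter on UMIs, Isg15 stayed past 1.5-fold in 15 of 16, Apol11b and Ifi27 in 16 of 16 and Xaf1 in 11 of 11. In barcodes that met every other limit but fell short of the gene minimum, Isg15, Apol11b, Rec114 and Ifi27 were all within 1.5-fold. Isg15 was there at 1393 in db/db and 1680 in wt, Apol11b at 3056 and 3997, and Rec114 at 787 and 1165. Ifi27 was at 152 in db/db and 206 in wt, while Xaf1 stayed lower, at 43.1 and 150. Gm42418, a locus over ribosomal RNA repeats that can collect their fragments, was lower in db/db in members without platelet UMIs, at 86959 in db/db and 202139 in wt. Over all members, with or without platelet UMIs, the Isg15 log2 ratio was -0.94. It was -1.20 over all members with Gm42418, other nuclear or ribosomal RNA genes and ribosomal protein genes left out of the total.

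**Figure D3:**
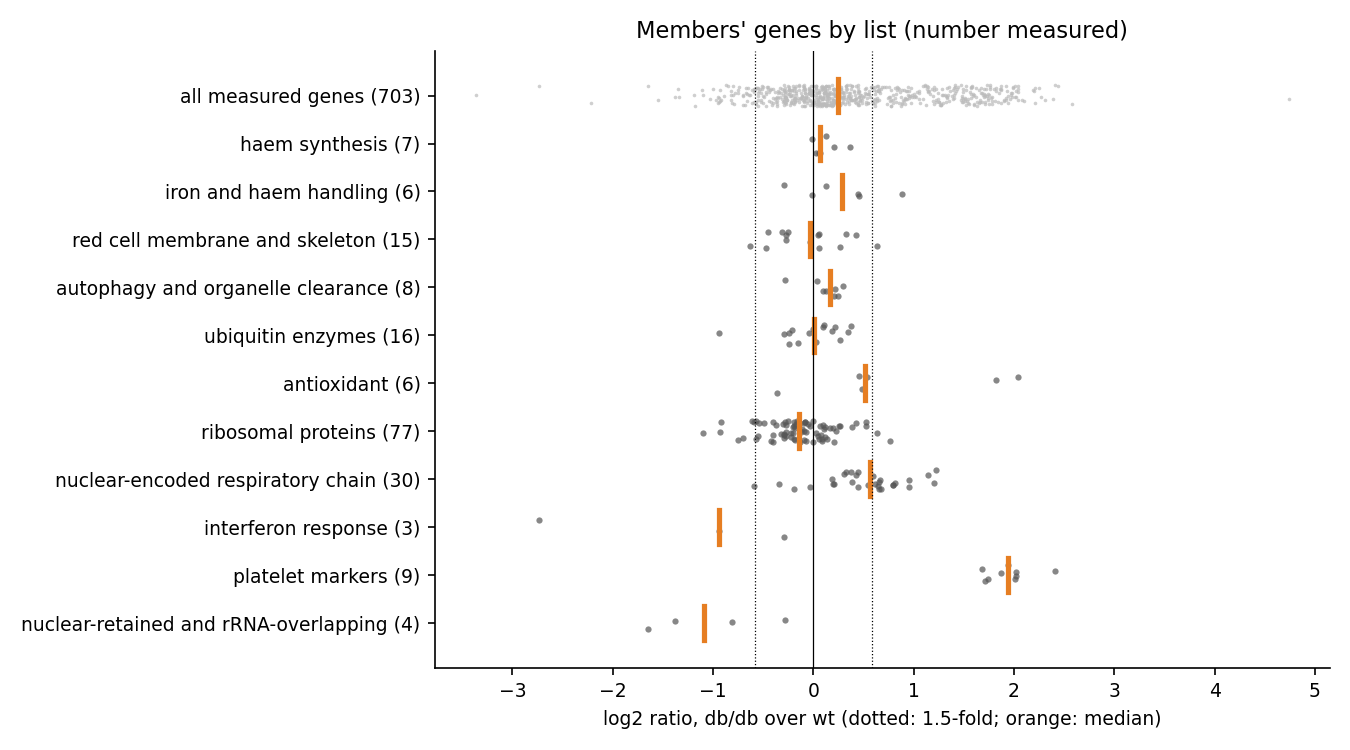
Log2 ratios, db/db over wt, of genes measured in late reticulocytes (horizontal) by gene list (rows, number measured in brackets). Each point is a gene, the orange bar is the list's median, and dotted lines mark 1.5-fold. Haem synthesis and ubiquitin lists lie near 0, all 9 platelet markers lie to the right and 2 of 3 interferon genes past the left line.

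Transcripts of other blood cells were present in members and differed between the libraries. Of 10 platelet markers 9 were measured, all higher in db/db (median 1.94 on the log2 scale), with a summed level of 15473 CPM in db/db and 4162 in wt. None was at 0 in either library. Pf4, platelet factor 4, was at 3939 in db/db and 1195 in wt, and Nrgn at 4052 and 988. Gp9, of the von Willebrand factor receptor, was at 1302 in db/db and 238 in wt. In platelet barcodes (Pf4 and Ppbp together at 10 UMIs or more and haemoglobin under 50%, limits chosen after the values were seen) the markers summed to 63386 in db/db and 55936 in wt. Members differed in how much they carried. No platelet marker UMI was found in 247 db/db members (28.0%) and 313 wt members (68.5%), while 128 db/db and 21 wt members had 20 or more. Genes were named by ratio where their interval excluded 1 and their level was at least 10% of that in B cell, T cell and neutrophil barcodes, leaving out ribosomal protein, immunoglobulin and unnamed genes. By that rule the 10 highest were Rtn4, Vcl, Gp9, Smim3, Gp6, Tuba1a, Cald1, Aldh2, Cd81 and Ilk. In members without platelet UMIs, Tuba1a and Cald1 kept no UMI in db/db and 3 each in wt, and Cd81 kept 1 and 5. Rtn4, a membrane-curving reticulon, stood at 311 in db/db members and 43.5 in wt members, and at 1050 and 1014 in platelet barcodes. Tmsb4x, the actin-binding thymosin β4, was at 29475 in db/db and 8559 in wt, and at 2894 and 1907 in members without platelet UMIs.

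In members without platelet UMIs, 65 of 317 measured genes (20.5%) were higher in db/db and 23 (7.26%) lower, with a median of 0.30. Among their genes above all gates, 90 in number, 18 were higher and 4 lower. Haem synthesis genes there had a median of 0.24 and membrane genes of 0.09. Car2 was at 7868 CPM in db/db and 5565 in wt, and Arf5 at 6853 and 3571. Eif5, a translation initiation factor, was at 10380 in db/db and 5847 in wt.

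B cell markers summed to 932 CPM in db/db and 1835 in wt, with none of the 10 at 0, T cell markers to 122 and 151, NK cell markers to 134 and 569, proximal tubule markers to 632 and 20.1, neutrophil markers to 284 and 231, and monocyte markers to 1372 and 506. Lyz2 alone made up most of the monocyte sum, and the other 7 markers summed to 128 in db/db and 134 in wt. Without S100a8 and S100a9 the neutrophil sum was 54.6 in db/db and 110.5 in wt. Cd79a, Cd74, Cd3 and S100 genes were limited by the rule. Ccl5 and Gzma, a chemokine and a granzyme of cytotoxic lymphocytes, were among the lowest ratios, at 43.3 and 80.9 in db/db and 539 and 412 in wt. Of the 161 wt Ccl5 UMIs, 85 lay in 1 member and 41 in another. Of the 43 db/db Gzma UMIs 40 lay in 1 member, and of the 123 in wt, which gave most of the NK cell sum, 57 lay in 1 member and 38 in another. By the same naming rule the other lowest ratios were those of Macf1, Vbp1, S100a13, Ncf4 and Ncoa7. Vbp1, a subunit of prefoldin, was at 86.6 in db/db and 211 in wt, and Ncf4, of the phagocyte oxidase, at 124 and 265. Lyz2, a lysozyme of myeloid cells, was at 1244 in db/db and 372 in wt, and at 5505 and 4240 in platelet barcodes. Among members without platelet UMIs, Lyz2 was at 589 in db/db and 67.9 in wt (8.67-fold, 4.92 to 16.5), from 94 and 14 UMIs. Malat1, a nuclear-retained RNA, was at 2262 in db/db and 7092 in wt, with a UMI in 30.2% and 87.3% of members. Gm42418 was at 75803 in db/db and 197421 in wt. Gpx3, a secreted peroxidase made mainly in kidney proximal tubule, had 137 UMIs in 65 db/db members and none in wt. Against the limit of 3 counts in wt (10.0 CPM) it was at least 25.7-fold higher. Gpx3, singled out after its values were seen, was also at 6101 in neutrophil barcodes of db/db and at 0 in those of wt, and at 87.8 and 13.0 in B cell barcodes.

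Members differed among themselves along their haemoglobin share. With 50 to 70% haemoglobin there were 15 db/db and 8 wt members, with 70 to 85% 101 and 51, and with 85 to 95% 767 and 398. The rule used this share, so its trends are a description. From the lowest to the highest range, haem synthesis genes summed to 5659, 16622 and 37446 CPM in db/db and to 9936, 19288 and 35965 in wt. Membrane genes summed to 4076, 9485 and 20748 in db/db and to 3974, 13881 and 22362 in wt. Bpgm ran 2302, 9512 and 25801 in db/db and 3715, 8770 and 21258 in wt. Isg15 ran 144, 872 and 1812 in db/db and 86.4, 1587 and 3474 in wt. Malat1 ran the other way, 12085, 6466 and 1074 in db/db and 18663, 15468 and 5310 in wt. Ribosomal protein genes summed to 102676, 56186 and 65030 in db/db and to 142647, 77341 and 65270 in wt. The lowest range rests on 15 and 8 barcodes.

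**Figure D4:**
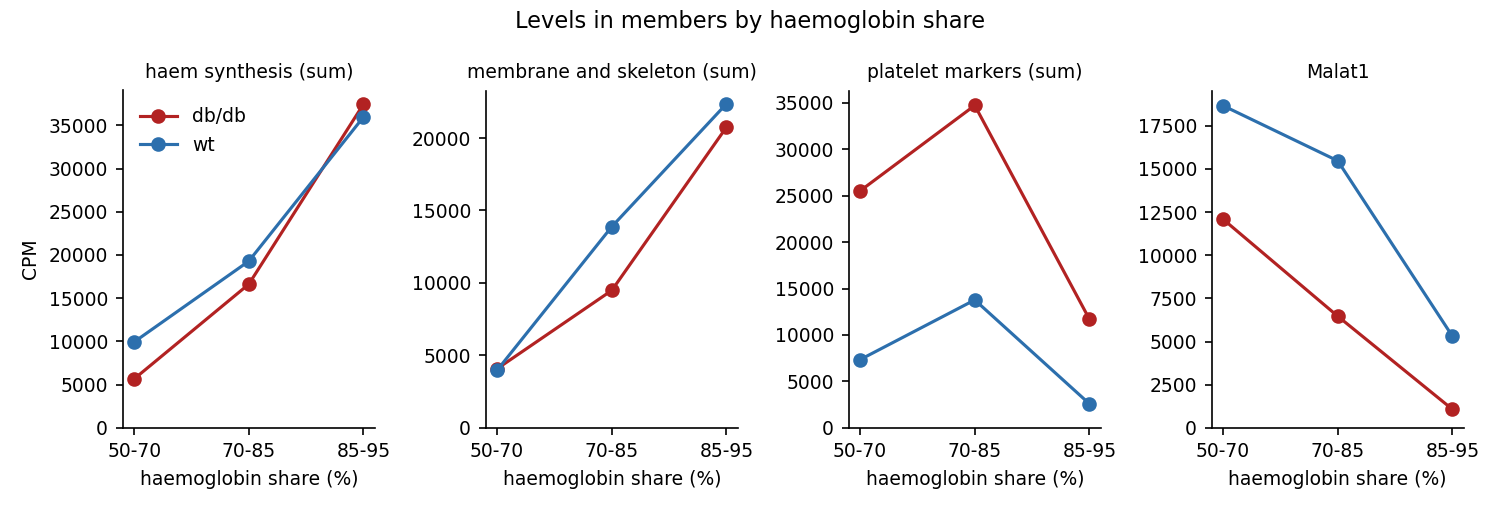
Levels in late reticulocytes by haemoglobin share (50 to 70%, 70 to 85%, 85 to 95% of UMIs; horizontal) in CPM (vertical, from 0), for the summed haem synthesis, membrane and platelet lists and for Malat1; db/db in red, wt in blue. Erythroid sums are highest and Malat1 lowest in the top range in both libraries; points are summed over the 15, 101 and 767 db/db and the 8, 51 and 398 wt members.

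Members also differed along their mt- share below the limit. Under 0.2% (266 db/db and 125 wt members) Bpgm was at 27671 in db/db and 22445 in wt, and from 0.5% to 1% (139 and 99 members) at 13399 and 11884. Car2 was at 6311 in db/db and 5698 in wt in the first of these ranges and at 4062 and 2634 in the last. Isg15 was at 2151 in db/db and 3042 in wt in the first, and at 913 and 1584 in the last. Malat1 was higher in the last range, at 5254 in db/db and 14637 in wt, against 2323 and 4246 in the first. Members between these ranges are not given here. Over all members Isg15 was at 3108 in wt and Malat1 at 2262 in db/db. Each lies outside the values of both ranges, so neither changed steadily along the mt- share.

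Set against barcodes that met every limit but had mt- UMIs of at least 1% (136 in db/db, 404 in wt), members held more erythroid RNA in both libraries. Of 397 genes with at least 100 UMIs over members and high-mt- barcodes in each library, 223 (56.2%) were at least 1.5-fold higher in db/db members and 213 (53.7%) in wt members, 205 of them in both. Lower were 96 (24.2%) in db/db and 66 (16.6%) in wt, 53 in both. The high-mt- barcodes were rich in Malat1, at 30049 CPM in db/db and 49894 in wt, and the part of RNA from nucleated cells in the ratios was not tested. The mt- limit was part of the rule, and these ratios are a description.

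All 6 measured haem synthesis genes were higher in members than in high-mt- barcodes in both libraries, with medians of 1.40 in db/db and 1.27 in wt. Urod, uroporphyrinogen decarboxylase, was at 657 CPM in db/db members against 135 in high-mt- barcodes, and at 569 against 128 in wt. Of 8 membrane genes 7 were higher in each library. Slc4a1 was at 3004 against 731 in db/db and at 3730 against 906 in wt. Car2 had one of the largest ratios, 4.71 in db/db (3.87 to 5.77) and 5.51 in wt (4.74 to 6.43). Of 15 ubiquitin genes 14 were higher and 1, Ube2d3, lower in each library. All 5 measured autophagy genes were higher in both, Bnip3l at 9405 against 3757 in db/db and 8599 against 4058 in wt. Isg15 was higher in members too, 5.98-fold in db/db (3.99 to 9.39) and 4.52-fold in wt (3.80 to 5.40). Ctse, an aspartic protease, and St3gal5, which makes ganglioside GM3, were also among the 8 highest.

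Ribosomal protein genes differed in count between the libraries, and that difference was not tested. Of 77, members had 47 at least 1.5-fold lower in the db/db library and 13 in the wt library. All 397 genes gave 24.2% and 16.6%, so the wt count was near the share of all genes. Only 4 of the 77 in db/db and 3 in wt were past 1.5-fold upwards, beside 56.2% and 53.7% of all genes. The median log2 ratio of the 77 was -0.83 for db/db and -0.11 for wt. The 8 named lowest in both libraries were Malat1, Macf1, Akap13, Ptprc, Ms4a4b, Msn, Son and Srrm2. Ptprc, the leukocyte antigen CD45, was at 147 in db/db members against 1609 in high-mt- barcodes and at 305 against 1571 in wt. Macf1, a cytoskeletal linker, was at 88.5 against 1305 in db/db and 278 against 1717 in wt. Srrm2, a splicing factor, was at 62.1 against 844 in db/db and 191 against 865 in wt. Platelet markers were higher in members, 5 of 5 measured in db/db and 4 of 5 in wt.

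**Figure D5:**
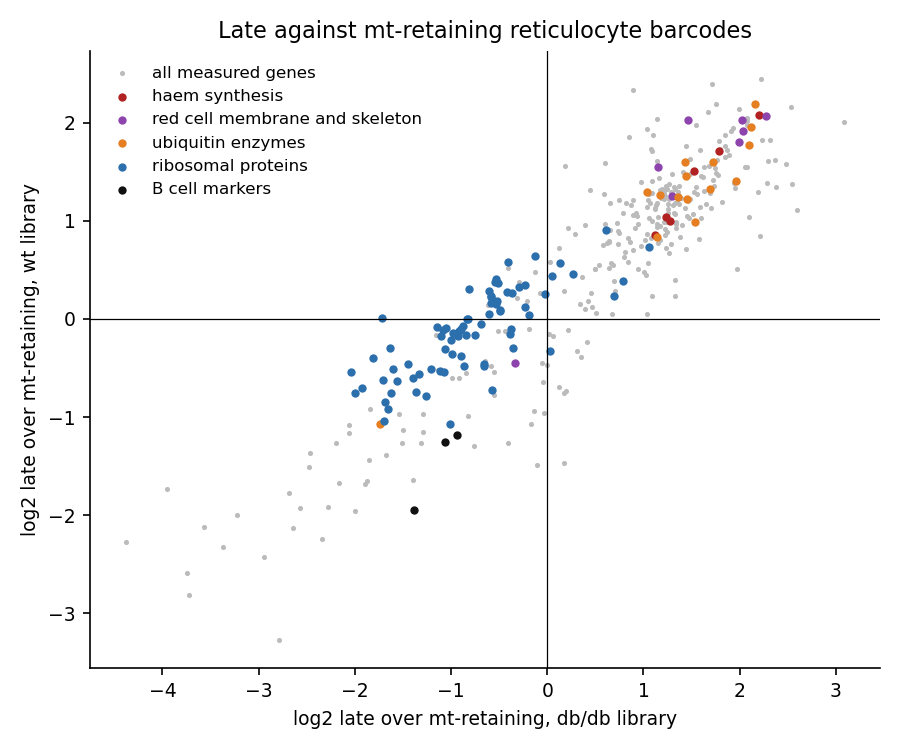
Log2 ratio of late reticulocytes over barcodes of the same rule with mt- UMIs of at least 1%, in the db/db library (horizontal) and the wt library (vertical), for 397 genes. Each point is a gene; haem synthesis (red), membrane (purple) and ubiquitin genes (orange) lie mostly at the upper right, B cell markers (black) at the lower left and ribosomal protein genes (blue) below 0 in db/db.

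Barcodes that met every limit but had fewer than 200 genes were more numerous, 6486 in db/db and 7402 in wt. Their median was 3929 UMIs in db/db and 3254 in wt. Of 802 genes with at least 100 UMIs over both sets in each library, 210 (26.2%) were higher in db/db members and 301 (37.5%) in wt members, and 17 (2.12%) and 11 (1.37%) were lower. Platelet markers led the higher side, 7 of 7 measured in both libraries with medians of 1.37 in db/db and 1.74 in wt. Tubb2a, a β-tubulin, was at 1090 CPM in db/db members against 213 in barcodes of fewer genes, and at 328 against 56.2 in wt. Alas2 was lower in db/db members, at 18873 against 29304, and within 1.5-fold in wt, at 19107 against 27143. Ube2l6 was likewise lower in db/db members, at 6072 against 9717, and within 1.5-fold in wt, at 7039 against 10041. Whether platelet RNA helped barcodes past the gene minimum was not tested.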

How the data were processed

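Peripheral blood cells were measured by droplet 3′ single-cell RNA sequencing, 1 library per genotype. The authors deposited raw UMI counts per gene and barcode, made with Cell Ranger 3.0.2 on mm10 per the submitters' processing notes. Totals were 70039773 UMIs in db/db and 50540198 in wt. No column was left unused, and no doublet caller was run. Members and gene lists were chosen with earlier results of these data known. UMIs were summed over members and scaled to CPM over the total outside haemoglobin and mt- genes, which the rule used. Genes with 100 UMIs over both libraries were measured, log2 ratios used a pseudocount of 10 CPM, and called genes differed by 1.5-fold. Named genes were the 10 highest and 10 lowest ratios, the first 8 each way against high-mt- barcodes, and list members. Others were chosen after their values were seen. Intervals are exact (Poisson, Clopper-Pearson, conditional binomial) at 95% and cover counting error only. The ratio per gene, its interval and the 1.5-fold rule were checked on simulated counts. Promoter windows are from RefSeq, GRCm38.p6. Alternatives changed the scaling, pseudocount, filters, member limits and platelet UMIs. Python 3.11.15, numpy 2.4.6, scipy 1.17.1, pandas 2.3.3 and matplotlib 3.10.9 were used.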

Additional observations from a re-analysis of the deposited data

Results flagged for a closer look

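The log2 ratio of Tspo2 was below 0 in late reticulocytes and above 0, though within 1.5-fold, in barcodes that met the same limits with fewer than 200 genes. It was at 576 CPM in db/db and 901 in wt in late reticulocytes, a log2 ratio of -0.64. In the barcodes of fewer genes it was at 744 in db/db and 645 in wt, a log2 ratio of 0.20. With 1 library per genotype this difference was not tested.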

How the results depend on the processing

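No paired analysis was possible because each genotype had 1 library, and none could be left out. Over 46 named genes and lists' genes, 782 values were recomputed: 578 kept within their counting interval, 199 moved and 5 reversed. The reversed genes were Vbp1 and Ncoa7 (0.73 each with at least 400 genes) and Tuba1a (-1.30), Cald1 (-1.30) and Cd81 (-1.07) without platelet UMIs, each with too few UMIs there for the filter. The ratio of shares of barcodes, 1.62, was 1.06 with at least 100 genes, 2.38 with at least 400, 1.03 without any leukocyte or platelet UMI and 0.66 without platelet UMIs. The 253 higher and 53 lower genes became 1675 and 1852 with no count filter, 80 and 17 with at least 300 UMIs, 542 and 286 with at least 100 genes, and 41 and 19 with at least 400. They became 53 and 10 without leukocyte or platelet UMIs, and 65 and 23 without platelet UMIs. Lower genes were 28 when scaled to all UMIs, 100 with median-of-ratios scaling and 103 without ribosomal and nuclear RNA in the total. Under the latter pair of scalings the haem synthesis median was -0.17 and -0.19, and the ubiquitin median -0.23 and -0.25. The haem synthesis median was 0.20 with at least 100 genes, -0.077 with at least 400, 0.23 without leukocyte or platelet UMIs and 0.24 without platelet UMIs. The ubiquitin median was 0.30, 0.30 and 0.32 with at least 100 genes, without leukocyte or platelet UMIs and without platelet UMIs, and the membrane median 0.33 with at least 100 genes. Tspo2 and Psme3 stayed past 1.5-fold in 11 of the 16 settings in which they passed the filter. The causes were not tested. The platelet-free setting was chosen after seeing the data.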

Other observations

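Apoe, a lipid carrier of macrophages, had 176 UMIs in 24 db/db members and 37 UMIs in 11 wt members, and 58 and 24 of them lay in a single member of each library. Tspo, the mitochondrial translocator protein, had a UMI in 35.3% of db/db members and 11.6% of wt members. Both genes were chosen after their values were seen.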
